A study of Mus musculus with 6 samples.

Results

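The class B ephrins and their Eph receptors were examined in sorted cells of the mouse genital tubercle, from which the penis or the clitoris grows in the embryo. The set was chosen by gene name, as all probe sets annotated to Efnb1, Efnb2, Efnb3, Ephb1, Ephb2, Ephb3, Ephb4 or Ephb6. It held 12 of the 45037 probe sets that are not array controls, 8 for the ligands and 4 for the receptors. Efnb1 had 3 of them, Efnb2 had 4, and Efnb3, Ephb1, Ephb3, Ephb4 and Ephb6 had 1 each. For Ephb2 no probe set is named in the annotation used, so 7 of the 8 genes are described and Ephb2 is not analysed here.

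Reporter-positive cells, labelled as urethral epithelium, were compared with the reporter-negative remainder of the same organ, with 3 arrays of total RNA in each group. All embryos carried Shhtm1(EGFP/cre)Cjt, in which the Shh locus makes a fluorescent Cre recombinase, and Gt(ROSA)26Sortm3(CAG-EYFP)Hze, a reporter that Cre switches on for good, so labelled cells include any whose ancestors used the Shh locus. The embryos were of mixed background, 12.5 dpc, and pooled over males and females. In either group replicates 1, 2 and 3 came from pools of 3, 5 and 2 littermates. The labels do not say whether positive and negative samples of 1 pool size share a litter, though their titles carry consecutive numbers. The main fit treats the arrays as unpaired, and p-values measure the spread between these arrays, each of 1 pool.

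Ephrins are ligands that stay attached to the cell that makes them, so they act on a neighbour at the point of contact. Class B ephrins span the membrane and carry a cytoplasmic tail, through which the ligand cell itself is signalled to (reverse signalling) while the receptor tyrosine kinase signals into the opposite cell (forward signalling). The pairing is known for repulsion, cell sorting and boundary formation, and in mice mutations of Efnb2 and of Ephb2 with Ephb3 disturb closure of the urethra and separation of the urinary tract from the rectum.

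Signal differed between arrays, and 1 array stood apart. The median deposited signal of named probe sets was 4.73, 3.56 and 0.34 in positive replicates 1, 2 and 3, against 7.62, 8.84 and 2.15 in negative replicates 1, 2 and 3, while the mean of the hybridization controls lay between 1443 and 1885 on all 6. Positive replicate 3 correlated with the other arrays at a Spearman coefficient of 0.303 to 0.317 across probe sets, where the other 5 arrays gave 0.671 to 0.822. A probe set is called above background here when its deposited signal exceeded that of every unspiked bacterial control (27 probe sets) of the same array. By that measure 9, 8 and 0 of the 12 probe sets were above background in positive replicates 1, 2 and 3, against 10, 9 and 11 in negative replicates 1, 2 and 3. Positive replicate 3 therefore gave no class B level above background, and class B differences are given with it and without it, except for a pair of dim Efnb2 probe sets for which none is given. The sort itself was visible in Shh, whose brighter probe set differed by 5.03 on the log2 scale (SE 0.50, adjusted p = 0.0209 over all probe sets by limma and Benjamini-Hochberg, 6 arrays), and by 4.96 without positive replicate 3 (adjusted p = 0.00206, limma). The dimmer Shh probe set, 1427571_at, differed by 0.51 (SE 0.20, adjusted p = 0.797, limma), and by 0.47 without positive replicate 3 (adjusted p = 0.781, limma).

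**Figure D1:**
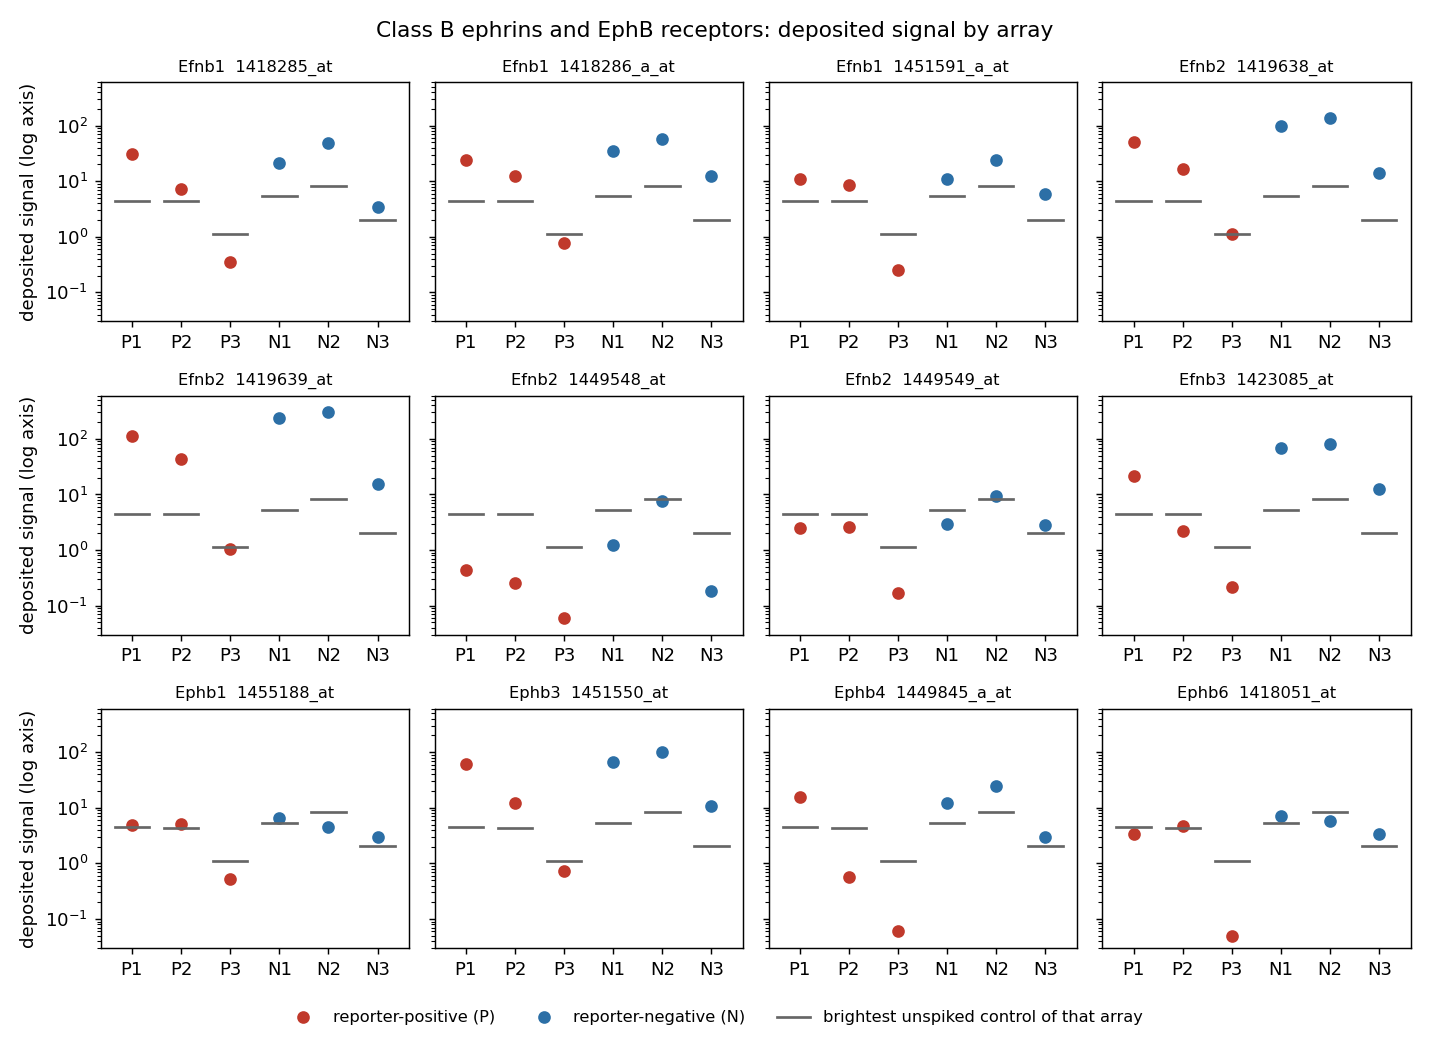
Deposited signal (log axis) of the 12 probe sets on each array, with reporter-positive replicates P1 to P3 left of reporter-negative replicates N1 to N3. Grey bars mark the brightest unspiked control of each array, and no point of P3 lies above its bar.

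Promoter sequences are shown for Efnb2 and Ephb3, because their brightest probe sets had the highest mean of the ligand and the receptor probe sets and because both were highest in positive replicate 1 and lowest in positive replicate 3 within the positive group. The sequences are RefSeq's on GRCm38.p6, from 250 bases before to 50 bases after the start of the gene, 5′ to 3′ on the gene's strand. Efnb2 lies on the minus strand at chr8:8661193-8661492, and Ephb3 on the plus strand at chr16:21204545-21204844. Capitals mark GC boxes (GGGCGG, or CCGCCC on the other strand) and CCAAT boxes (CCAAT, or ATTGG on the other strand), which shared no base in these windows.
Efnb2: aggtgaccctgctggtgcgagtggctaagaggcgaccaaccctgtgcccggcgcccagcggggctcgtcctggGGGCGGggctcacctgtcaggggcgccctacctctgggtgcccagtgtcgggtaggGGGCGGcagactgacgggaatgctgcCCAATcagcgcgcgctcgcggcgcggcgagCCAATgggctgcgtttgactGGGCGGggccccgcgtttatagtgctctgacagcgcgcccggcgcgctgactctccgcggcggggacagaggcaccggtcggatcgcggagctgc
Ephb3: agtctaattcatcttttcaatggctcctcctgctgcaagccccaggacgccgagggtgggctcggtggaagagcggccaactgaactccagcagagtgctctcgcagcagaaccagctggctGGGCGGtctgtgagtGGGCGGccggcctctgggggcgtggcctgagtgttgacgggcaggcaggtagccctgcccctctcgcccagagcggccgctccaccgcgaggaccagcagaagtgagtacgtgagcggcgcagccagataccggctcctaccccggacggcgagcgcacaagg
The Efnb2 window held 3 GC boxes and 2 CCAAT boxes, and the Ephb3 window held 2 GC boxes and 0 CCAAT boxes. The promoter table had an entry for Efnb1, Efnb2, Ephb1, Ephb2, Ephb3, Ephb4 and Ephb6, and none for Efnb3. A GC box was present in 4 of these 7 promoters, against 35.7% of 32851 promoters of equal length, and a CCAAT box in 5 of 7, against 37.4%. The letters GACCACCCA (TGGGTGGTC on the other strand), the core of the site bound by the Gli factors of hedgehog signalling, were in 0 of 7 windows and in 0.253% of all. These matches describe the letters alone. The arrays did not measure any promoter.

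No class B probe set differed between the fractions past the threshold. In the 6 arrays 0 of 12 passed an adjusted p of 0.05 (limma), where 9 of 45037 probe sets did, a share of 0.0200%. At an unadjusted p under 0.05 the count was 1 of 12, which was Efnb3, against 3.90% of all probe sets. Without positive replicate 3 the counts were 0 of 12 by adjusted p, against 0.0666% of all probe sets, and 1 of 12 by unadjusted p, again Efnb3, against 6.03%. The median log2 difference over the 12 probe sets, positive minus negative, was -0.19 in the 6 arrays and -0.07 in the 5, beside medians of 0.01 and -0.01 over all probe sets. Differences were below 0 for 10 of 12 in the 6 arrays, against 48.4% of all, and for 8 of 12 in the 5 arrays, against 51.6%. Probe sets of 1 gene share a transcript, so these 12 are not 12 independent measurements. In bulk samples fewer cells of a type and less RNA per cell cannot be told apart.

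**Figure D2:**
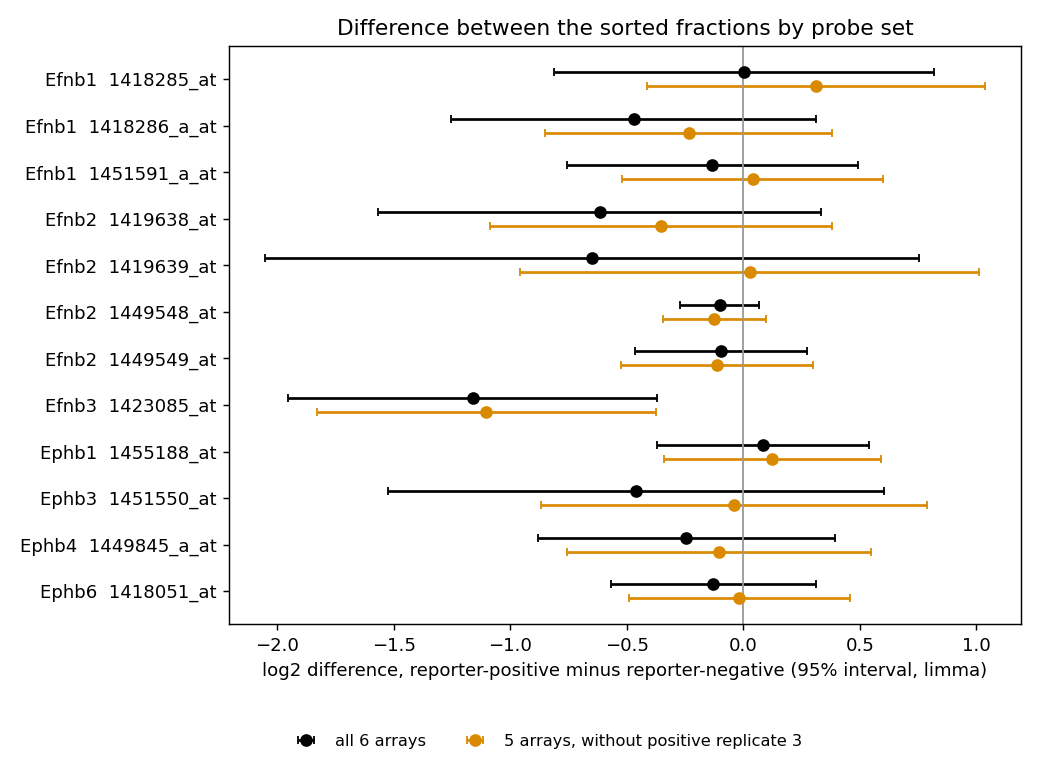
Log2 difference of each class B probe set, reporter-positive minus reporter-negative, with the 95% interval of limma's fit to all 6 arrays (black) and to the 5 arrays without positive replicate 3 (orange). The interval of Efnb3 lies below 0 in both fits, and the other 11 include 0.

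Efnb3 had the largest difference of the ligands. Ephrin-B3 is best known as a midline barrier to growing axons in the mouse spinal cord. Its deposited signal was 21.1, 2.23 and 0.22 in positive replicates 1, 2 and 3, against 68.4, 81.3 and 12.7 in negative replicates 1, 2 and 3. Only positive replicate 1 was above background among the positive arrays, where the control read 4.47, 4.41 and 1.12, while all 3 negative arrays were above it. After quantile normalization Efnb3 read 5.21, 4.23 and 4.28 log2 units in the positive arrays, against 5.81, 5.68 and 5.71 in the negative arrays. The groups did not overlap, with every positive array below every negative one. Across all probe sets 5.74% showed that arrangement, and 1 of the 12 class B probe sets did. In the 5 arrays 2 of 12 showed it, Efnb3 and the dim Efnb2 probe set 1449548_at, against 10.8% of all.

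The mean of Efnb3 was 4.57 ± 0.55 in positive cells and 5.73 ± 0.07 in negative cells (SD, n = 3 each). The log2 difference was -1.16 (SE 0.36, 95% interval -1.95 to -0.37, unadjusted p = 0.00798, adjusted p = 0.797, limma) on the log2(signal + 16) scale. No fold is given, because only 1 of 3 positive arrays was above background and the size moved with the number added before the log, to -1.94 with 4 and -0.48 with 64. The difference did not pass the threshold over 45037 probe sets. Without positive replicate 3 it was -1.10 (SE 0.33, unadjusted p = 0.00643, adjusted p = 0.661, limma). That fit still includes positive replicate 2, where Efnb3 was also below background. Over 17 alternatives the difference was below 0 in 17 and ranged from -1.94 to -0.48, with an adjusted p of 0.146 to 0.966. Whether Efnb3 differed more than the other class B genes was tested on within-array differences of the brightest probe sets. The 6 exact two-sided permutation tests gave p = 0.100 to 0.500 (0.150 to 0.500 after Benjamini-Hochberg adjustment). The smallest p that 3 against 3 arrays allow is 0.100, so none of these tests could pass the threshold. Efnb3 was also the gene with the largest class B difference in these same arrays. The tests therefore cannot decide whether Efnb3 differed more than the others, and no conclusion is drawn from them.

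Efnb2 had signal in both fractions by its brighter pair of probe sets. Ephrin-B2 is the ligand of arterial endothelium and of several epithelia, and it binds EphB4 as well as EphB2 and EphB3. The brightest, 1419639_at, read 113.6, 44.0 and 1.06 in deposited units in positive replicates 1, 2 and 3, against 234, 304 and 15.3 in negative replicates 1, 2 and 3. Normalized, these were 7.21, 6.40 and 4.79 log2 units in positive arrays, against 7.26, 7.17 and 5.91 in negative arrays. Positive replicate 1 reached the level of the 2 higher negative arrays and positive replicate 2 lay between the negative ones, so the groups overlapped. The log2 difference was -0.65 (SE 0.64, adjusted p = 0.810, limma) in 6 arrays and 0.03 (SE 0.45, 95% interval -0.96 to 1.01, adjusted p = 0.994) without positive replicate 3, and -1.20 without positive replicate 1.

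The second Efnb2 probe set, 1419638_at, gave a similar arrangement. It read 51.3, 16.4 and 1.12 in deposited units in positive replicates 1, 2 and 3, against 98.6, 135.8 and 14.2 in negative replicates 1, 2 and 3. Its normalized mean was 5.47 ± 0.63 in positive cells and 6.08 ± 0.22 in negative cells (SD, n = 3 each). Positive minus negative, that is -0.62 (SE 0.43, adjusted p = 0.797, limma), or -0.35 without positive replicate 3 and -0.97 without positive replicate 1 (unadjusted p = 0.0550, adjusted p = 0.538, limma). The remaining Efnb2 probe sets were dim. On 1449548_at no array was above background, with signals of 0.06 to 0.44 in positive and 0.18 to 7.76 in negative arrays. On 1449549_at 0 of 3 positive arrays and 2 of 3 negative arrays were above it, with signals of 0.17 to 2.59 against 2.86 to 9.38. No fold is given for either.

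The 3 probe sets of Efnb1 were above background in positive replicates 1 and 2 and in all negative arrays, and they did not share a direction. Ephrin-B1 is encoded on the X chromosome, and its loss in humans causes craniofrontonasal syndrome. Probe set 1418285_at read 31.5, 7.27 and 0.35 in deposited units in positive replicates 1, 2 and 3, against 20.9, 48.6 and 3.37 in negative replicates 1, 2 and 3. Its normalized value of 5.60 log2 units in positive replicate 1 was above all 3 negative arrays, which read 4.83, 5.23 and 4.58, while positive replicates 2 and 3 read 4.73 and 4.32. The log2 difference was 0.0043 (SE 0.37, 95% interval -0.81 to 0.82, adjusted p = 0.997, limma).

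Probe set 1418286_a_at of Efnb1 read 23.7, 12.2 and 0.77 in deposited units in positive replicates 1, 2 and 3, against 35.4, 58.6 and 12.5 in negative replicates 1, 2 and 3. It had the lowest difference of the 3, at -0.47 (SE 0.36, adjusted p = 0.797, limma), and -0.23 without positive replicate 3. Probe set 1451591_a_at read 10.9, 8.63 and 0.25 against 11.1, 23.7 and 5.97 in the same order of replicates, and its difference was -0.13 (SE 0.28, adjusted p = 0.910, limma). Without positive replicate 3 the differences of these 3 probe sets were 0.31, -0.23 and 0.04, and the groups overlapped for each.

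**Figure D3:**
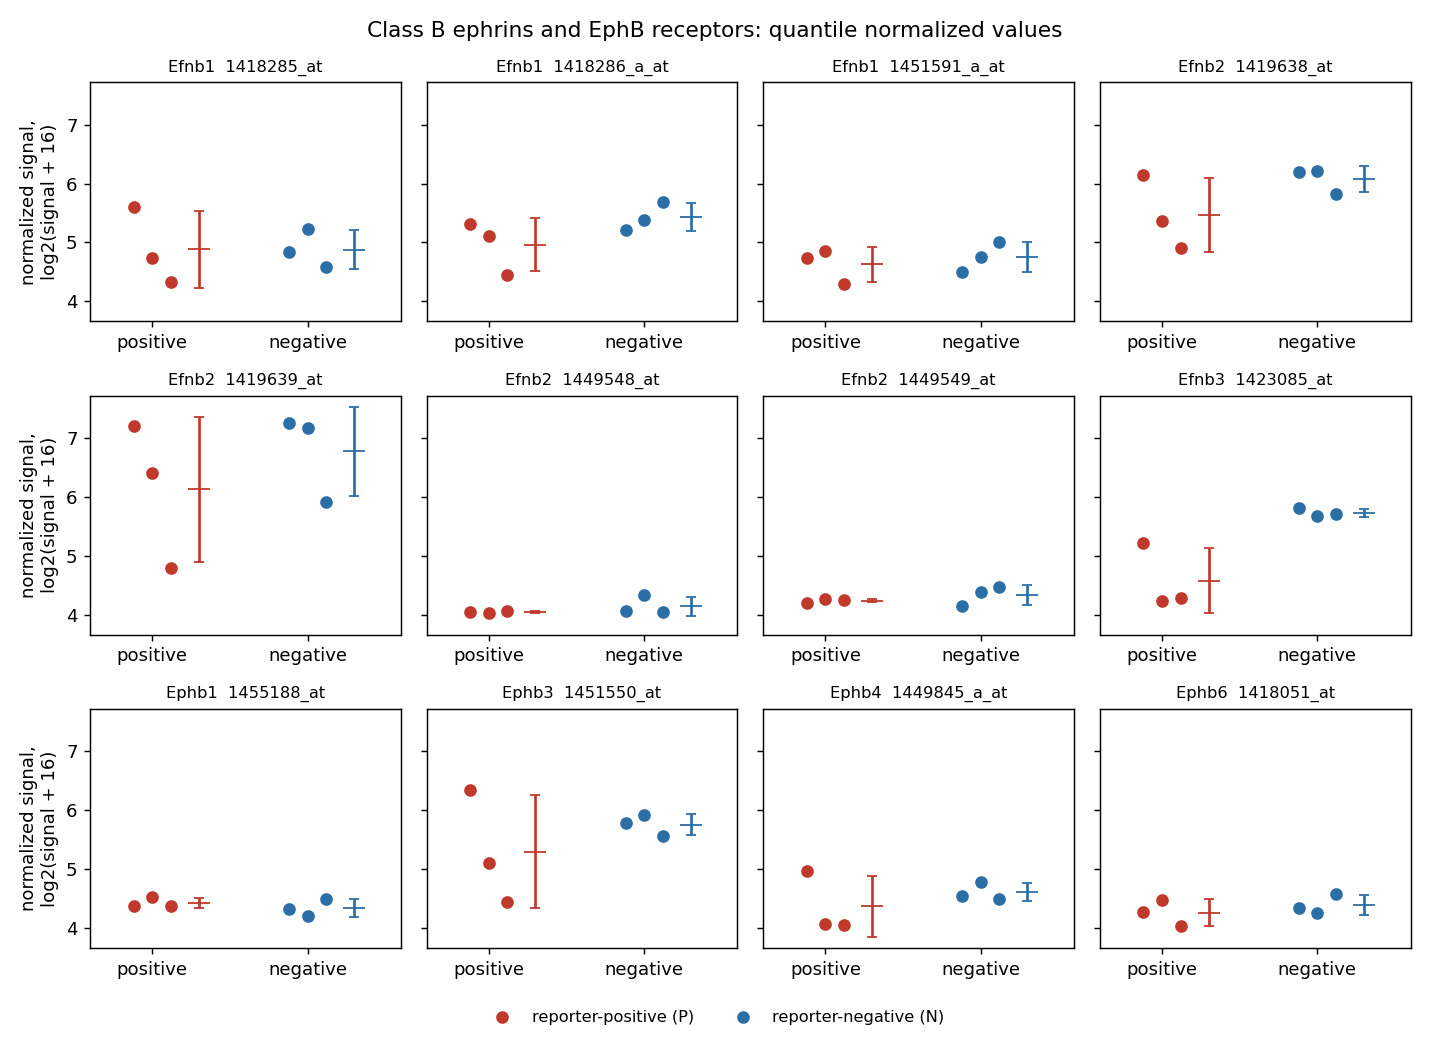
Quantile normalized values, log2(signal + 16), of the 12 probe sets by fraction, with reporter-positive arrays left of reporter-negative ones. Points are arrays and bars are mean ± SD of 3. Only Efnb3 shows positive arrays that are all below the negative ones.

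Among the receptors, Ephb3 had the widest spread in positive cells. EphB3 is a kinase of intestinal crypts, where it helps to position epithelial cells. It read 60.4, 12.1 and 0.72 in deposited units in positive replicates 1, 2 and 3, against 66.6, 102.7 and 10.9 in negative replicates 1, 2 and 3. Normalized values were 6.35, 5.11 and 4.44 log2 units in positive arrays, against 5.79, 5.92 and 5.56 in negative arrays. Positive replicate 1 was thus above every negative array and positive replicates 2 and 3 below every one. The mean was 5.30 ± 0.97 in positive cells and 5.76 ± 0.18 in negative cells (SD, n = 3 each), which gives -0.46 on the log2 scale (SE 0.48, adjusted p = 0.820, limma). Without positive replicate 3 it was -0.04 (SE 0.38, 95% interval -0.87 to 0.79). Without positive replicate 1 it was -0.99 (unadjusted p = 0.0389, adjusted p = 0.538, limma), more than 1.5 times the value of all 6 arrays.

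Ephb4 showed the same split between positive replicates. EphB4 is the receptor of venous endothelium that pairs with ephrin-B2. Its deposited signal was 15.6, 0.58 and 0.06 in positive replicates 1, 2 and 3, against 12.1, 24.9 and 2.98 in negative replicates 1, 2 and 3. It was above background in 1 of 3 positive and 3 of 3 negative arrays. Normalized, positive replicate 1 at 4.97 log2 units was above the negative arrays at 4.54, 4.79 and 4.50, and positive replicates 2 and 3 at 4.07 and 4.05 were below them. The log2 difference was -0.24 (SE 0.29, adjusted p = 0.837, limma), and -0.11 without positive replicate 3. Without positive replicate 1 it was -0.54 (unadjusted p = 0.0501, adjusted p = 0.538, limma), and without positive replicate 2 it was -0.10.

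Ephb1 and Ephb6 were near background in both fractions. EphB1 is known from the guidance of retinal axons, and EphB6 lacks kinase activity. Ephb1 read 4.87, 5.11 and 0.52 in deposited units in positive replicates 1, 2 and 3, against 6.62, 4.47 and 2.99 in negative replicates 1, 2 and 3, and was above background in 2 of 3 arrays of each group. Its log2 difference was 0.09 (SE 0.21, 95% interval -0.37 to 0.54, adjusted p = 0.921, limma), and 0.12 without positive replicate 3. Ephb6 read 3.33, 4.77 and 0.05 in positive replicates 1, 2 and 3, against 7.25, 5.87 and 3.34 in negative replicates 1, 2 and 3. It was above background in 1 of 3 positive and 2 of 3 negative arrays, and its difference was -0.13 (SE 0.20, adjusted p = 0.877, limma). That was -0.018 without positive replicate 3 and -0.25 without positive replicate 2. Signals this close to the controls limit what a difference of either gene can show.

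The positive arrays also differed among themselves in markers of other cells. Relative to the negative mean, the median of the 12 probe sets was 0.01, -0.23 and -0.56 in positive replicates 1, 2 and 3, against -0.05, 0.09 and -0.06 in negative replicates 1, 2 and 3. Mesenchymal markers, of which 15 of 16 had a probe set, stood at -0.05, -2.35 and -2.25 in positive replicates 1, 2 and 3. Their summed normalized signal was 3211, 380.8 and 528 in positive arrays and 2982 to 3817 in negative arrays. By sum and by median, positive replicate 1 thus lay within the range of the negative arrays. Single markers varied in positive replicate 1. Col1a1, Col1a2, Prrx1, Tbx4, Foxf1 and Foxf2 were below every negative array there, Col5a1 and Vim were above every one, and the other measured markers lay between. Epithelial markers stood at 1.75, 2.87 and 2.96 in positive replicates 1, 2 and 3, lowest in replicate 1, and their sum was 1406 to 3642 in positive and 79.7 to 84.5 in negative arrays. Within the positive group, normalized values of Ephb3, Ephb4, Efnb3, Efnb2 (the brighter pair) and Efnb1 (1418285_at and 1418286_a_at) were highest in replicate 1. That was the positive array with the most mesenchymal signal. Those of Ephb1, Ephb6, Efnb1 (1451591_a_at) and the dim Efnb2 pair were not highest there. The share of all probe sets that were highest in that array was not counted. Positive replicate 1 was also the brightest positive array, with a median deposited signal of 4.73 against 3.56 and 0.34 in positive replicates 2 and 3. The parts of mesenchymal cells and of array signal in these values were not tested.

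Endothelial markers, relevant to the arterial ligand Efnb2 and the venous receptor Ephb4, were dim. All 15 had a probe set. Their summed normalized signal was 109, 63.6 and 178.6 in positive replicates 1, 2 and 3, against 60.3 to 75.5 in negative arrays. The highest sum was thus that of the dim array, where a deposited 2.57 for Egfl7 became 7.08 log2 units on normalization. Of the 15 markers, 12, 3 and 2 were above background in positive replicates 1, 2 and 3, against 8, 8 and 6 in negative replicates 1, 2 and 3. None was listed at 0. No endothelial marker passed the threshold, 0 had an unadjusted p under 0.05 (limma), and the largest difference was Egfl7, a secreted endothelial factor, at 1.04 (SE 0.57, adjusted p = 0.797, limma), or 0.24 without positive replicate 3. Erythroid markers, with 10 of 11 on the array, had a median difference of -1.77 and summed to 687 to 1533 in positive and 3224 to 6150 in negative arrays. None passed in the 6 arrays, where 6 had an unadjusted p under 0.05 (limma), and Hbb-bh1 and Slc4a1 were lower in the 5. The part of endothelial and erythroid cells in the class B values was not tested.

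**Figure D4:**
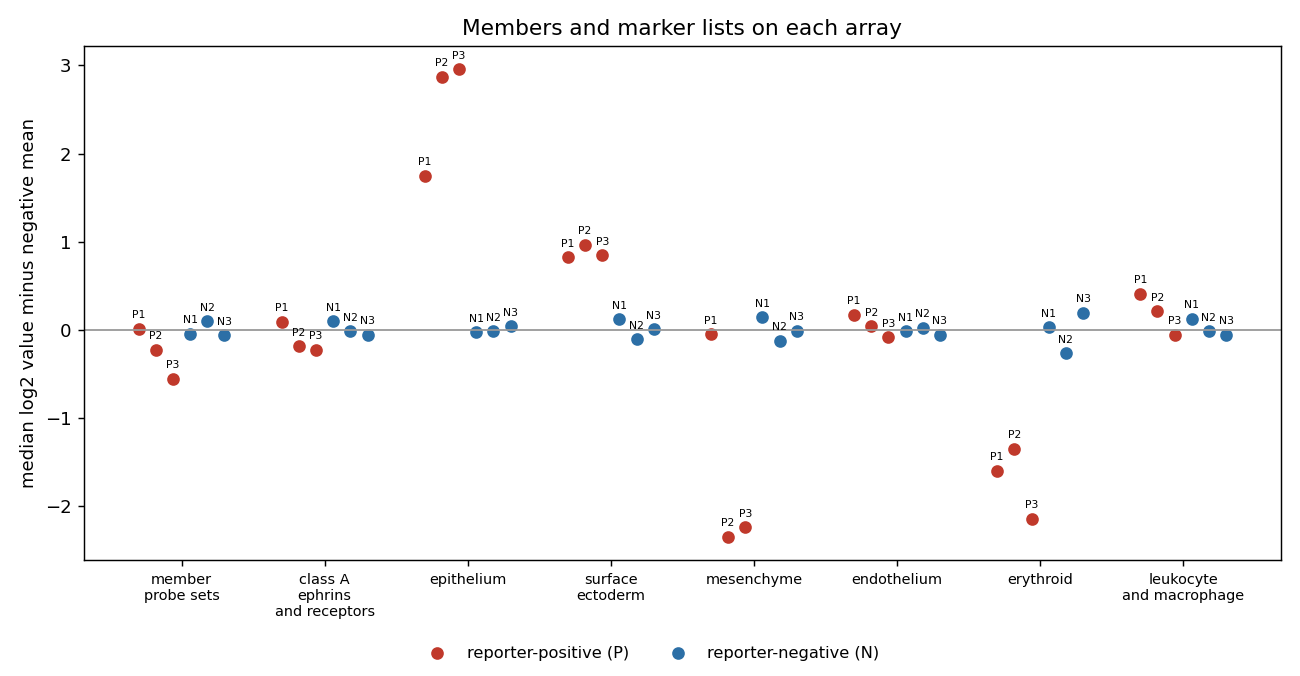
Median log2 value of the class B probe sets, the class A genes and marker lists on each array, minus the mean of the negative arrays. Reporter-positive replicates (P1 to P3) stand left of reporter-negative ones (N1 to N3). By these medians P1 is level with the negative arrays for mesenchymal markers, class A genes and class B probe sets, though single mesenchymal markers vary.

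The class A ephrins and receptors, the closest relatives, also gave no call. All 14 genes had a probe set, 8 had a difference below 0, 0 passed in either direction in the 6 or the 5 arrays (limma, adjusted), and the median was -0.13, or -0.07 in the 5. At an unadjusted p under 0.05 (limma) the count was 2, Epha3 and Epha5. Over all probe sets 48.4% had a difference below 0 and 3.90% an unadjusted p under 0.05. Efna2, Epha3 and Epha5 had every positive array below every negative one, as 5.74% of all probe sets did. Epha1 had every positive array above every negative one, as 5.80% did. Epha3 and Epha4, receptors with roles in mesenchyme and in limb and neural patterning, had the largest differences. Epha3 measured 4.94 ± 0.92 in positive cells and 6.30 ± 0.21 in negative cells (SD, n = 3 each), or -1.36 positive minus negative (SE 0.48, adjusted p = 0.797, limma), and -1.11 without positive replicate 3. Epha4 differed by -1.26 (SE 0.65) and the ligand Efna2 by -0.82 (SE 0.40), neither past the threshold. Epha4 was at -0.76 and Efna2 at -0.60 without positive replicate 3. For all 3, positive replicate 1 was the highest positive array.

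Genes that act downstream of either partner gave no call in the 6 or the 5 arrays by limma with adjusted p. At an unadjusted p under 0.05 in the 6 arrays (limma) there were 0 forward signalling, 2 reverse signalling and 0 shedding genes. Of all probe sets 3.90% had such a p. Of the forward signalling genes 18 of 19 had a probe set, with 11 below 0 and a median of -0.28, or -0.15 in the 5 arrays. The exchange factor Kalrn had the largest difference, at 1.24 (SE 0.65), but 0.36 without positive replicate 3. The adaptor Crk and the co-receptor Ryk differed by -0.98 (SE 0.49) and -0.94 (SE 0.49), and without positive replicate 3 by -0.71 and -0.59. Of 12 measured reverse signalling genes, out of 13, 8 were above 0 and the median was 0.14, or 0.09 in the 5 arrays.

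The reverse signalling genes included the phosphatase Ptpn13, which binds the ephrin-B tail by a PDZ domain and can dephosphorylate it. Ptpn13 read 5.97, 6.44 and 6.18 log2 units in positive replicates 1, 2 and 3, against 4.92, 4.74 and 5.37 in negative replicates 1, 2 and 3. Every positive array was above every negative one, an arrangement that 5.80% of all probe sets showed. The log2 difference was 1.18 (SE 0.38, unadjusted p = 0.00945, adjusted p = 0.797, limma), and 1.27 without positive replicate 3 (adjusted p = 0.420). The PDZ scaffold Grip1, another binder of that tail, differed by 0.70 (SE 0.31) and the polarity protein Pard6b by 0.58 (SE 0.28). These were 0.80 for Grip1 and 0.56 for Pard6b without positive replicate 3. None of the 3 passed the threshold in either fit. Of 7 genes for shedding of ephrins and receptors 6 were measured, 5 were below 0, and the largest difference was that of the protease Adam17 at -0.57 (SE 0.48), or -0.01 without positive replicate 3. Adam10 and Adam12 differed by -0.29 and -0.21, and without positive replicate 3 by 0.29 and -0.14.

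The genes whose profile over the 6 arrays was most like that of Efnb2 (1419639_at) were Nptn, Lgr4 and Mpdz, with Pearson correlations of 0.996, 0.996 and 0.995 among 14070 other genes. For Ephb3 they were Zfp560, Aldh1a2 and Ep300, at 0.995, 0.995 and 0.995. The 6 arrays include the dim one, and each gene was picked from all of these for its likeness, so these coefficients are descriptions. Without positive replicate 3 the coefficients were 0.984 to 0.997 for the Efnb2 set and 0.987 to 0.996 for the Ephb3 set.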

How the data were processed

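Per the labels, the extracted molecule was total RNA of sorted cells, the label was biotin and the arrays were Affymetrix mouse arrays. The deposited intensity values are 1 linear signal per probe set and array. The submitters' processing notes name GCOS (1 sample); how probe sets were summarized, scaled or filtered is not given in the sources used here. Of 45101 probe sets 64 controls were set aside. Array medians of log2(signal + 16) differed by 0.499, so linear signals were quantile normalized and transformed to log2(signal + 16), a scale that understates changes of dim genes. On the dim positive replicate 3, quantile normalization also raised low signals. For Kalrn a deposited 3.10 became 7.58 log2 units there, while 13.2 in negative replicate 1 became 4.58. Normalized values and sums of positive replicate 3 carry this limit. Symbols came from the platform annotation, updated through RefSeq's GRCm38.p6 gene table (34741 of 34945 single-gene probe sets matched).

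limma 3.58.1 in R 4.3.3 (lmFit, then eBayes with trend) was fitted to every probe set. P-values were adjusted by Benjamini and Hochberg over 45037, with a threshold of 0.05. Groups came from the labels, replicates were numbered in accession order, and pools of equal size were not taken as pairs. Other genes were represented by their brightest probe set. Shares over all probe sets are therefore not a like background for counts in the gene lists. In the 6 arrays those shares were 48.4% with a difference below 0 and 3.90% with an unadjusted p under 0.05 (limma). All class B probe sets, Shh, and up to 3 genes of each list with the largest difference were named, besides 3 genes of most similar profile. Members and lists were chosen with earlier results of these data known. The 6-array comparison was tested on simulated data of 45037 probe sets. It called 2.40% of log2 changes of 1, 66.4% of changes of 2, 95.6% of changes of 3 and 100% of changes of 4, and 4.06% of its calls were false. Changes were put only on probe sets above the 30th percentile of the mean. Falls that would have ended near or past the floor of the scale were made rises, so falls of dim probe sets were not simulated. Noise was drawn independently for each probe set, with a spread shared by probe sets of similar intensity on an array. Spread particular to a gene and differences in cell make-up between arrays were therefore not simulated, and the rates hold for that setting. The number of arrays limits the precision.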

Additional observations from a re-analysis of the deposited data

How the results depend on the processing

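No class B probe set passed an adjusted p of 0.05 under any of 17 alternatives (limma). The number of probe sets past the threshold, 9 (5 higher and 4 lower) in the 6 arrays, was 0 with values as deposited, 39 (36 higher and 3 lower) with median centring, 0 with a pseudocount of 64, 4 with a filter at the 30th percentile of the mean, 2 with the brightest probe set per gene, 0 with the mean of a gene's probe sets, 1 without an intensity trend, 154 (114 higher and 40 lower) with array weights and 0 without replicate 3 of both groups. Leaving out 1 array gave 0 to 30, with 30 without positive replicate 3, 5 without positive replicate 2, 1 without negative replicate 2, and 0 without negative replicate 1 or 3. A replicate block by pool size gave 4 and changed no class B call. Deviations of pools of equal size correlated at 0.115, 0.0297 and 0.102, and those of unlike size at -0.127 to 0.0652. Whether pools of equal size are pairs was not tested, and the main fit did not take them as pairs. The causes of these shifts in the counts were not tested.

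Values as deposited moved the median difference of all probe sets to -0.19, beside a class B median of -0.46 and -1.47 for Efnb3. Signs turned for 5 probe sets, none of them past the threshold. Efnb1 1418285_at turned below 0 as deposited (-0.45), centred on medians (-0.26), with a pseudocount of 4 (-0.078) and with gene means (-0.20). Leaving out 1 array gave it -0.35 to 0.31, with -0.35 without positive replicate 1, -0.015 without negative replicate 1 and -0.17 without negative replicate 3. Ephb1 turned to -0.091 as deposited. Efnb1 1451591_a_at turned above 0 with array weights (0.058) and without replicate 3 of both groups (0.20), and ranged from -0.26 to 0.041 with 1 array left out, above 0 without positive replicate 3. Ephb6 turned to 0.023 with array weights and 0.093 without replicate 3 of both groups. With 1 array left out, Efnb2 1419639_at ranged from -1.20 without positive replicate 1 to 0.027 without positive replicate 3, and was -0.38, -0.40 and -1.12 without negative replicates 1, 2 and 3. Leaving out positive replicate 1 gave -0.97 for Efnb2 1419638_at and -0.54 for Ephb4. Ephb1 was 0.038 without positive replicate 2, and 0.012 and 0.18 without negative replicates 2 and 3. Without negative replicate 2 Ephb3 was -0.30 and Ephb4 -0.13. Ephb6 was -0.25 without positive replicate 2, -0.018 without positive replicate 3 and -0.042 without negative replicate 3. Log2 changes of 1 were seldom called in simulated data of 6 arrays, which held no falls of dim probe sets to the floor. Positive replicate 3 had 0 of 12 probe sets above background.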

Other observations

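Lists of further cell types that a sorted tubercle fraction could hold were measured beside the class B genes. Of the 15 epithelial markers 15 had a difference above 0 and 3 were higher in reporter-positive cells in the 6 arrays, Shh, Krt8 and Foxa1 at 5.03, 4.46 and 3.81 on the log2 scale (limma, 9 in the 5 arrays without positive replicate 3). Mesenchymal markers gave 15 of 15 differences below 0 with a median of -1.68, and none passed in either fit, although 10 had an unadjusted p under 0.05 in each (limma). The largest were Col1a2, Cdh11 and Tbx4 at -2.34, -2.29 and -2.11, and without positive replicate 3 at -1.93, -1.55 and -1.82. Surface ectoderm markers were above 0 for 6 of 8, with a median of 0.70, and none passed in the 6 arrays and 1, Krt15, in the 5. The basal keratin Krt15 had the largest difference, at 2.31 (SE 0.43), or 2.22 in the 5. Leukocyte and macrophage markers were above 0 for 9 of 11, with a median of 0.30, none past the threshold in the 6 arrays and 1, Csf1r, in the 5. The complement gene C1qb led them at 1.32 (SE 0.28), or 1.46 in the 5. Nerve and Schwann cell markers, 6 of 8 measured, had a median of -0.0040 and skeletal and smooth muscle markers, 7 of 7, a median of -0.04 (0.07 in the 5), with none past the threshold in either fit. At an unadjusted p under 0.05 in the 6 arrays limma counted 4 surface ectoderm, 4 leukocyte, 1 nerve and 0 muscle markers, against 3.90% of all probe sets.

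The erythroid globins Hbb-bh1 and Hba-x differed by -4.07 (SE 0.58, adjusted p = 0.0657, limma) and -3.65 (SE 0.63, adjusted p = 0.229, limma). The red cell membrane gene Slc4a1 differed by -2.33 (SE 0.33, adjusted p = 0.0657, limma). Without positive replicate 3 Hbb-bh1, Hba-x and Slc4a1 differed by -3.87, -3.40 and -2.45, all larger in size than any class B difference.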
